A study of Bos taurus with 4 samples.

Results

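The genes described here encode the small nuclear ribonucleoproteins of the spliceosome, the SR proteins and the heterogeneous nuclear ribonucleoproteins (hnRNPs). They were taken as every transcript probe of the EmbryoGENE bovine array whose platform gene symbol begins with SF3, SNRP, SRSF, SFRS, HNRNP or PRPF, with SNRPN left out. This gave 107 of the 43794 transcript probes, for 63 of the 15229 gene symbols on the array. Of these, 88 probes for 58 genes passed a background filter and were tested, among 20198 tested probes in all. A probe was tested where its signal exceeded the negative control spots in high glucose on all 4 arrays or in control glucose on all 4.

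Bovine (Bos taurus) morulae were made in vitro from slaughterhouse ovaries and cultured in synthetic oviductal fluid. The high glucose group (HG) had 5 mM glucose from day 0 to day 3, and the control group (CTL) had 0.2 mM over the same days. Both groups were then kept in control medium to day 5 and collected 120 h after fertilization. Neither group carried any other treatment in the labels. Each of 4 arrays set 1 HG pool of 10 morulae against 1 CTL pool of 10, and the dyes were exchanged: Cy5 marked the HG pool on arrays 1 and 2, and Cy3 marked it on arrays 3 and 4. All values are log2 ratios of HG over CTL, so a negative value means a lower signal in the HG pool. The labels do not state whether each pool had its own fertilization, so the p-values measure only the spread between these pools, which may be technical. In pools of whole embryos, fewer cells of a type and less RNA per cell cannot be told apart.

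In splicing, U1 snRNP pairs with the 5′ splice site and U2 snRNP with the branch point, and the U4/U6.U5 tri-snRNP then joins to form the catalytic spliceosome. SR proteins bind exonic enhancers and recruit these particles, while hnRNPs coat nascent RNA and often oppose them. The cleavage-stage embryo takes over from maternal transcripts to its own transcription before the morula stage, and its new transcripts depend on this machinery.

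Some facts of the arrays bear on every value below. The median raw Cy3 intensity was 210, 212, 287 and 211 on arrays 1 to 4. It was thus highest on array 3, where Cy3 marked the HG pool. For Cy5 the median ran from 153 to 163. None of the 107 probes was saturated on any array (0 on each). The share of transcript probes above background ran from 54.7 to 62.6% in the HG channel and from 50.3 to 57.1% in the CTL channel. The highest HG share, 62.6%, was also on array 3, whose CTL share was 53.4%. The ratios of arrays 1 and 3 ran against each other, with a correlation of -0.44 across the 20198 tested probes once turned to HG over CTL by the labelled dyes, and of -0.29 across the 88 splicing and hnRNP probes, of which 51 lay on opposite sides of 0 on arrays 1 and 3. Read as Cy5 over Cy3, array 3 changes sign, so the correlation across the 88 is 0.29 by construction. The direction of each array is taken from its label. Summary counts of the 88 probes are given with the sign of array 3 turned and without it. Medians of the gene groups are also given with it turned. Single probes with a small p or with 1 sign on all arrays are given with array 3 turned, and without it or with array 1 turned where the mean moves by over 1.5 times. Probes share each array's dyes and pools, so these correlations are descriptions.

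Markers of cells and stages also differed between the pools. Of 33 listed cumulus and granulosa cell markers, 18 had a tested probe, on 20 probes in all. Their median ratios on arrays 1 to 4 were -2.02, -0.01, 2.12 and -0.42. The mean log2 signal of these 20 probes ranged from 8.66 to 11.88 over the HG pools and from 8.92 to 10.78 over the CTL pools. LUM, a matrix proteoglycan, was at -5.15, 1.66, 3.32 and -1.15, and THBS1, a matrix glycoprotein, at -5.05, -0.06, 4.4 and -0.82. They were picked as the probes with the largest ratios on any array. FN1 (-0.66, -0.46, -0.63 and -1.15), CYP19A1 and KRT19, also on the list, were below 0 on all 4 arrays. AMH and LHCGR, which mark granulosa cells, were above background on 0 arrays.

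Morula and early lineage markers had tested probes for 7 of 14 listed genes, among them POU5F1, NANOG, KRT8 and KRT18. Their median on arrays 1 to 4 was 0.04, -0.05, -1.04 and -0.36, over 11 probes, and the mean log2 signal ranged from 10.09 to 10.70 in HG and from 10.73 to 11.10 in CTL. KRT8, a keratin of simple epithelia, was at -1.69, -2.78, -1.84 and -0.92, the lowest mean of the list, and NANOG, a pluripotency factor, at -0.27, 1.19, 0.17 and 0.78. CDX2, SOX2, GATA3 and CDH1 did not pass the background filter. The 6 oocyte marker genes with a tested probe (8 probes) had medians of 0, -0.18, 0.09 and 0.27. Their mean log2 signal ranged from 7.33 to 7.67 in HG and from 7.41 to 7.57 in CTL.

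The comparison asks whether glucose exposure in the first days of culture left a difference in these transcripts at the morula stage. The 88 probes lay lower in HG more often than higher: 64 had a mean below 0 and 24 a mean above it, which is 72.7% below 0 against 49.6% of all tested probes. Their median was -0.16, against 0 over all tested probes, and the means ran from -0.88 for PRPF8 to 0.63 for a probe of SRSF1. No probe passed limma's adjusted threshold of 0.05. The count was 0 of 88 here and 0% of all 20198, and the smallest adjusted p was 0.692 in both. At unadjusted p under 0.05, 8 of the 88 probes (9.09%) were lower in HG, beside 3.79% of all tested probes, and 1 (1.14%) was higher, beside 3.27%. On all 4 arrays, 12 probes (13.6%) were lower in HG, beside 7.2% of all tested probes, and 2 (2.27%) were higher, beside 7.47%.

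Much of this came from array 3. The 88 probes had medians of -0.07, -0.07, -0.45 and 0.08 on arrays 1 to 4, while all tested probes had medians of 0, 0.01, 0 and 0.01. From the 25th to the 75th percentile, the 88 spanned -0.72 to -0.05 on array 3, and all tested probes spanned -0.37 to 0.33. On array 1 these spans were -0.67 to 0.28 and -0.43 to 0.34. On arrays 2 and 4 the 88 spanned -0.22 to 0.18 and -0.26 to 0.39, and all tested probes -0.27 to 0.27 and -0.27 to 0.28. The spans of the 88 thus lay on both sides of 0 on arrays 1, 2 and 4. On array 3, 67 of the 88 lay below 0 (76.1%, against 50.1% of all tested probes). The counts below 0 on arrays 1, 2 and 4 were 48, 49 and 40. For 46 of the 88 probes array 3 held the lowest of the 4 values (52.3%, against 30.2% of all tested probes).

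With the sign of array 3 turned, the median of the 88 probes was 0.05, 2 probes were lower and 11 higher on all 4 arrays, against 7.96 and 8.42% of all tested probes. Without array 3 the median was -0.05, and 14 probes were lower and 13 higher on the remaining 3 arrays, against 15.2 and 15.9% of all. Arrays 2 and 4 alone gave a median of 0.02, with 26 probes lower and 25 higher on both, against 25.3 and 27.7%. Array 3 was also the array with the highest cumulus and granulosa marker ratio and the lowest morula marker ratio. The part of these cells and stages in the splicing values was not tested. With the sign of array 1 turned, the median was -0.05, with 11 probes lower and 7 higher on all 4 arrays, against 7.47 and 8.21% of all.

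Brighter and dimmer probes had similar medians over the 4 arrays, but on array 3 the brighter members were at -0.58 and the dimmer at -0.35. Of the 88 probes, the 44 with the higher mean signal had a median of -0.18 and the 44 with the lower signal one of -0.15. Over all tested probes, those brighter than the members' median signal were at -0.04 and the rest at 0.01. That median was 10.57, against 8.41 for all tested probes, so the shares over all probes describe a dimmer set. Of the 4094 brighter tested probes, 2268 had a mean below 0. At unadjusted p under 0.05 (limma) 244 were lower and 203 higher, and on all 4 arrays 373 were lower and 336 higher. Of the 44 brighter members, 33 had a mean below 0, with 5 lower and 0 higher by each of these counts.

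Among U1 snRNP genes, 3 of 4 tested probes had means below 0, with a group median of -0.21. This count and those of the later groups stand beside 49.6% of all tested probes with means below 0. The group medians on arrays 1 to 4 were -0.33, -0.17, -0.68 and 0.18, and the median over the arrays was -0.07 with array 3 turned. SNRPC encodes the U1-C protein, which steadies the contact with the 5′ splice site. Probe EMBV3_41974 for it read -0.56, -0.15, -1.42 and -0.55 on arrays 1 to 4, below 0 on every array. Its mean was -0.67 ± 0.53 (SD, n = 4; limma, unadjusted p = 0.0332, adjusted p = 0.692), 0.04 with array 3 turned, -0.42 without it and -0.39 with array 1 turned. The other tested probe for SNRPC was at -0.21. SNRPA, the U1-A protein that binds a U1 RNA hairpin, was at -0.40, -0.17, 0.82 and 0.27, and the U1-associated PRPF39 at 0.26, -0.17, -1.29 and 0.38. These 2 genes lay on both sides of 0 across the arrays. SNRNP70, another core U1 protein, falls outside the symbol rule and was at -0.52, 0.35, -0.29 and 0.02.

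For U2 snRNP, 9 of 14 probes had means below 0 and the median was -0.16. By array the medians were -0.01, 0.01, -0.37 and -0.15, and the group median was 0 with array 3 turned. SNRPA1 encodes the U2-A′ protein. Its probe EMBV3_26890 read -0.97, -0.51, -0.44 and -0.20, below 0 on every array. The mean was -0.53 ± 0.32 (n = 4; limma, unadjusted p = 0.0269, adjusted p = 0.692), or -0.31 with array 3 turned and -0.04 with array 1 turned. The other 2 tested probes for SNRPA1 had means of -0.24 and -0.18, and both were above 0 on array 1. SF3B1, the large subunit that holds U2 at the branch point, had 3 tested probes. EMBV3_12993 read -0.89, -0.15, -0.43 and -0.09, EMBV3_42877 read -0.04, 0.08, -0.74 and 0.18, and EMBV3_11579 read -0.06, 0.32, 0.26 and -0.03. Only the first of the 3 lay below 0 on every array, and with the sign of array 1 turned its mean of -0.39 became 0.06. With array 3 turned it was -0.18. SF3A3 and SF3B5, other subunits of the SF3a and SF3b complexes, had means of 0.12 and 0.06, and SF3B3 had a mean of -0.32.

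The Sm core, the ring of proteins around each spliceosomal small RNA, gave 5 of 9 probes with means below 0 and a median of -0.01. Its group medians lay further apart between arrays than those of the other 7 groups, at 0.33, 0.01, -0.79 and 0.39 on arrays 1 to 4. The median over the arrays was 0.31 with array 3 turned. SNRPE read 0.47, 0, -1 and -0.17, and the SNRPG probe EMBV3_20394 read 0.41, -0.11, -0.94 and -0.01. SNRPD1 read 1.09, -0.01, -0.79 and 0.40. In each of these 3 probes array 1 was the highest and array 3 the lowest. The other SNRPG probe read 0.33, 0.04, -1 and 0.34. SNRPB went the other way on both probes, at -0.27, 0.34, 0.30 and 1.10 for EMBV3_34703 and at -0.71, 0.39, 0.45 and 1.29 for EMBV3_07008, with means of 0.37 ± 0.56 and 0.36 ± 0.82.

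The PRPF factors other than PRPF39 had means below 0 for 7 of 10 probes and a median of -0.10, with -0.06, 0.08, -0.41 and 0.09 on arrays 1 to 4. That median was 0.04 with array 3 turned. PRPF8 is the scaffold at the heart of the U5 snRNP and the catalytic core. It read -1.37, 0.07, -0.70 and -1.51, so that 3 arrays were well below 0 and array 2 was just above it. The mean of -0.88 ± 0.72 (n = 4) was the lowest among the 88 probes and corresponds to a 1.83-fold lower signal in HG (limma, unadjusted p = 0.0294, adjusted p = 0.692). With array 3 turned it was -0.53, and with array 1 turned -0.19.

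PRPF3, a U4/U6 protein, read -0.52, -0.28, -0.47 and -0.75. All 4 arrays were below 0 and the spread was among the smaller ones, with a mean of -0.50 ± 0.19 (limma, unadjusted p = 0.0166, adjusted p = 0.692) or -0.27 with array 3 turned and -0.24 with array 1 turned. PRPF38A takes part in spliceosome activation, and its probe EMBV3_02400 read -0.04, -0.25, -1.20 and -0.43. That mean was -0.48 ± 0.51 and went to 0.12 with array 3 turned and -0.24 without it, while the other 2 tested probes were at 0 and -0.19. PRPF19, a ubiquitin ligase of the complex that activates the spliceosome, read -1.55, 0.66, 0.13 and 0.61, with an SD of 1.03. Array 1 alone lay below 0 for it. PRPF18, a factor of the second catalytic step, had 3 probes with means of 0.21, 0.08 and -0.16.

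SR and SR-related proteins made up 24 of the tested probes, 15 with means below 0 and 9 above, with a median of -0.03. Medians by array were 0.09, -0.07, -0.41 and 0.02, and the group median was 0.08 with array 3 turned. The SR and SR-related proteins held the probes with the smallest p on both sides. SRSF2 (SC35) binds exonic enhancers and is a marker of nuclear speckles. On probe EMBV3_25682 the log2 signal was 14.14, 14.14, 13.95 and 14.04 in the HG pools and 14.97, 14.32, 14.92 and 14.84 in the CTL pools. The ratios were -0.83, -0.18, -0.97 and -0.80, with a mean of -0.69 ± 0.35 (n = 4), a 1.62-fold lower signal in HG. Its unadjusted p of 0.011 (limma) was the smallest among the 88 probes, with an adjusted p of 0.692, and the mean was -0.21 with array 3 turned and -0.28 with array 1 turned.

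A second SRSF2 probe, EMBV3_40458, read -0.52, -0.24, -1.23 and -0.38 (mean -0.59 ± 0.44; limma, unadjusted p = 0.0328), with a mean of 0.02 with array 3 turned, -0.38 without it and -0.33 with array 1 turned. The third tested probe, EMBV3_40607, read 0.33, 0.21, -0.69 and 1.14, with a mean of 0.25. The probes for SRSF2 thus differed in direction on arrays 1, 2 and 4 and lay below 0 together on array 3.

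SRSF9, a small SR protein that acts in alternative splice site choice, had log2 signals of 10.02, 10.22, 10.67 and 10.50 in HG and of 11.35, 10.62, 11.12 and 11.23 in CTL. Within each array the HG pool was the lower one, while the HG pool of array 3 and the CTL pool of array 2 overlapped. The ratios were -1.34, -0.40, -0.45 and -0.73. They had a mean of -0.73 ± 0.43 (n = 4), a 1.66-fold lower signal (limma, unadjusted p = 0.0145, adjusted p = 0.692), and a mean of -0.50 with array 3 turned and -0.06 with array 1 turned. It was the only probe for this gene. SRSF4 and a probe of SCAF11, an SR-related protein, were below 0 on all 4 arrays with smaller means of -0.31 and -0.27. With array 3 turned these were -0.14 and -0.10, and with array 1 turned 0.02 and -0.21.

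SRSF1 (ASF/SF2), the founding SR protein, had the highest mean and 3 probes that disagreed. EMBV3_42300 read 1.02, 0.72, -0.17 and 0.96, with a mean of 0.63 ± 0.55 (n = 4), a 1.55-fold higher signal in HG (limma, unadjusted p = 0.0442, adjusted p = 0.692). That mean was 0.72 with array 3 turned, 0.90 without it and 0.12 with array 1 turned. EMBV3_07915 read 0.18, 0.27, 0.03 and 0.38, above 0 on every array, with a mean of 0.21 that was 0.20 with array 3 turned and 0.13 with array 1 turned. EMBV3_00247 read -0.69, 0.04, -0.45 and -0.26. Array 3 held the lowest value for the first pair of probes but not for the last. The gap of 0.97 between the highest and lowest probe mean was the widest among the 19 genes with several tested probes. SRSF3, the smallest SR protein, read 0.11, -0.23, -1.08 and 0.01. SRSF6 had 3 probes with means of 0, -0.06 and -0.03, and SRSF5 had 2 with means of 0.19 and 0.29.

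Among hnRNPs A, B and D, 8 of 9 probes had means below 0 and the median was -0.18. Arrays 1 to 4 gave group medians of -0.15, -0.09, -0.43 and 0.15, and the median of -0.18 became 0.03 with array 3 turned. HNRNPA1, a repressor that binds exonic silencers, read -1.15, 0.20, -0.56 and 0.32. HNRNPAB, a related RNA-binding protein, read -0.15, -0.07, -0.84 and -0.49, below 0 on all arrays, with a mean of -0.39 ± 0.35, which was 0.03 with array 3 turned and -0.24 without it. HNRNPA2B1, which takes part in splicing and mRNA transport, was the exception. Its probe EMBV3_36013 read 0.43, 0.48, 0.03 and 0.74, above 0 on every array, with a mean of 0.42 ± 0.29 (limma, unadjusted p = 0.0508, adjusted p = 0.704), or 0.41 with array 3 turned and 0.21 with array 1 turned. The second probe, EMBV3_17761, read -0.07, -0.31, -0.37 and 0.68 and had a mean of -0.02.

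The hnRNP F and H group, which binds runs of guanine, had medians of 0.21, -0.09, -0.88 and -0.14 on arrays 1 to 4, and all 6 of its tested probes lay below 0 on array 3. Its median over the arrays was -0.26, and 0.22 with array 3 turned. HNRNPH3 probe EMBV3_38172 read -0.77, -0.49, -1.21 and -0.19, below 0 on every array. Its mean was -0.66 ± 0.43 (limma, unadjusted p = 0.0211, adjusted p = 0.692), or -0.06 with array 3 turned and -0.28 with array 1 turned. The other 2 HNRNPH3 probes had means of -0.32 and -0.20. One of them, EMBV3_02387, had one of the largest spreads, at 1.02, -0.67, -1.04 and -0.59. HNRNPF, HNRNPH1 and HNRNPH2 were at means of 0.01, -0.01 and -0.41.

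The other hnRNPs had 12 of 12 tested probes, for 8 genes, with means below 0, beside 49.6% of all tested probes. Their median was -0.28, but -0.04 with array 3 turned and 0.02 on arrays 2 and 4 alone. By array, their lowest group median was on array 1, at -0.79, with -0.12, -0.52 and 0.21 on arrays 2 to 4. None of the 12 was below 0 on all 4 arrays (0 probes) or had an unadjusted p under 0.05 by limma. HNRNPC, which binds uridine tracts, read -1.88, 0.02, -0.57 and -0.44. HNRNPM had 4 probes with means from -0.68 to -0.21, and each lay below 0 on arrays 1 and 3. HNRNPU, a large RNA- and chromatin-binding protein, had 2 probes, at -0.77, -0.20, -0.67 and 0.23 and at -1.19, -0.25, 0.18 and 0.20.

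HNRNPK, which binds cytosine-rich RNA, read -2.52, 0.30, 0.36 and 0.74 on its single tested probe, and HNRNPL, which binds CA repeats, read -2.47, 0.27, 0.36 and 0.70. These were the largest spreads among the 88 probes, with SDs of 1.5 and 1.47, and array 1 alone lay below 0. The log2 signal of HNRNPK was 10.91, 11.46, 11.44 and 11.61 in the HG pools and 13.43, 11.16, 11.08 and 10.87 in the CTL pools, so the CTL pool of array 1 stood apart. The HNRNPK and HNRNPL probes differed by at most 0.05 on any array, and 2 probes without a gene symbol followed the HNRNPK values within 0.1 on every array. Their agreement is a description over 4 arrays. Array 1 was also the array with the lowest cumulus and granulosa marker ratio (-2.02), whose part in these values was not tested. Of the 3 other HNRNPK probes, 2 were above background on 0 arrays and the last on 3 arrays in HG and 2 in CTL. That last probe, EMBV3_33022, was too dim to be tested and read -0.50, 0.16, -0.08 and 0.13.

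Over the 19 genes with several tested probes (49 probes), the probe means were all below 0 for 11 genes, all above 0 for 2 (SRSF5 and SNRPB) and differed in sign for 6. These 6 were SRSF1, SRSF2, SF3B1, HNRNPA2B1, PRPF18 and SCAF11. Of the 11 genes, SRSF6 and PRPF38A each had a highest mean so slightly below 0 that it rounds to 0. The tables used here do not say which transcript each probe reads, so differences between probes of 1 gene cannot be assigned to isoforms.

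The spread limits what 4 arrays can show. The SD over the arrays had a median of 0.47 for the 88 probes and of 0.43 for all tested probes, and the 95% confidence interval of a mean had a median half-width of 0.55 on the log2 scale. A dye term was fitted beside the treatment, since some probes label better with one dye. Its unadjusted p lay under 0.05 for 1 of the 88 probes (1.14%), SREK1, beside 8.34% of all tested probes. The smallest adjusted p of the dye term was 0.597 among the 88 (limma). SREK1, an SR-related protein, read -0.92, 0.17, 0.92 and 0.92.

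The remaining snRNP, SR and hnRNP genes, whose platform symbols fall outside the rule (SNRNP70, HNRNPDL, SRSF10 and others), had means below 0 for 15 of 19 tested probes and a median of -0.16. Their median on array 3 was -0.50, and 0.10 with array 3 turned over the 4 arrays. The lists of other splicing genes had medians nearer 0. The list of branch point, LSM and catalytic factors had 36 of 66 tested probes below 0 and a median of -0.04, with 4 lower (6.06%) and 1 higher (1.52%) at unadjusted p under 0.05, beside 3.79 and 3.27% of all tested probes. PPIH, a cyclophilin of the U4/U6 snRNP, read -0.44, -0.40, -0.92 and -0.70, and DDX46, an RNA helicase that acts with U2, read 0.90, 0.53, 0.07 and 0.60. Splicing regulators and SR kinases had 37 of 72 probes below 0 and a median of -0.01, with 1 lower (1.39%) and 0 higher at that unadjusted p (limma). The 1 was PSPC1, a paraspeckle protein, at -0.59, -0.46, -1.85 and -0.58, which went from a mean of -0.87 to 0.06 with array 3 turned.

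For snRNP assembly, 17 of 24 probes were below 0 and the median was -0.10, with 1 lower (4.17%) and 0 higher at unadjusted p under 0.05 (limma). WDR77, of the complex that methylates Sm proteins, read -0.53, -0.11, -0.73 and -0.51. The exon junction complex and mRNA export list had 19 of 28 probes below 0 and a median of -0.06, with 2 lower (7.14%) and 0 higher (limma), beside the same 3.79 and 3.27% of all. NXT1, a partner of the main mRNA export receptor, was the only gene of this list with an unadjusted p under 0.05. Its probe EMBV3_02512 read -0.20, -0.67, -0.59 and -0.49. EIF4A3, the helicase that anchors the junction complex, read -1.72, 0.01, -0.42 and -0.96 and was not among the 2 (limma, unadjusted p = 0.0501). All 4 of these lists also had their lowest median on array 3, at -0.32, -0.20, -0.39 and -0.36 in the order given. None of their probes passed the adjusted threshold (0 in each list). Whether these lists differ from the snRNP, SR and hnRNP genes was not tested.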

How the data were processed

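The deposited scanner files hold each spot's intensity, as pixel means and medians at 532 nm (Cy3) and 635 nm (Cy5) with local background, neither corrected nor normalized, per the file headers. Per the labels' protocols, the RNA went through repeated rounds of T7 amplification and was labelled at guanine, so a ratio can also reflect amplification. A second deposited table holds log2 ratios made by the authors from these arrays. They followed Cy5 over Cy3 with correlations of 0.976, 0.988, 0.992 and 0.993 and column medians of 0.02, 0, 0 and -0.01, and were not turned by dye. Their background correction and centring stay unknown. Limma is named, with no version, in the submitters' processing notes, and the genome build was not given in the sources used here.

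Here mean intensities were corrected with normexp (offset 50) against the median of the local background pixels and normalized by loess within arrays with control spots given weight 0, using R 4.3.3 and its package limma 3.58.1. The pixel median was chosen after a full run with pixel-mean background had been seen, results for these genes included, because it brought the ratios closer to the authors' deposited ones. Ignored spots (29, 151, 140 and 92 on arrays 1 to 4) were removed first. A probe was above background if its log2 signal lay more than 2 SD over the mean of 153 negative controls on that array and channel. After the ratios had been turned to read HG over CTL, limma's lmFit and eBayes tested each mean against 0, and p-values were adjusted by Benjamini-Hochberg over all 20198 tested probes. The fit was tested on simulated data with known HG over CTL changes and noise drawn independently for each probe and array. No dye effect was simulated, so the power of the dye term was not tested.

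Of 43794 probes, 21790 had 1 platform symbol and the rest are unnamed here. Older symbols were updated through RefSeq synonyms, for 14 of the 63 symbols (SFRS1 to SRSF1, for example). The members, lists, alternatives and marker sets were chosen with earlier results of these data known. Values per array were given for tested probes with unadjusted p under 0.05 or 1 sign on all 4 arrays (up to 10 per direction by p), the 4 with the largest SD, fixed well-known genes, genes whose probes differ in direction (up to 5), and up to 4 genes per other list. Genes given beyond these were chosen after their values were seen. All arrays shared 1 slide, so slide is no batch, and the precision is limited by there being 4.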

Additional observations from a re-analysis of the deposited data

Results flagged for a closer look

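The 4 array values of each item were searched for 1 far from the other 3, over 96 probes and role groups. The rule flagged 4 of the 96, where chance gives about 1 in 20, so the count does not exceed that rate. The share flagged over all tested probes is not given here. The HNRNPK and HNRNPL probes differed by at most 0.05 on any array, so they may not be separate observations, which was not tested. The HNRNPK probe was at -2.52 and the HNRNPL probe at -2.47 on array 1, against 0.27 to 0.74 on the others. On array 3, SRSF7 probe EMBV3_24525 was at -0.99, against -0.11 to 0.06 on the others, and SNRPB2, a U2 snRNP protein, was at -0.53, against -0.04 to 0.03. Arrays 1 and 3 were also those whose cumulus and granulosa marker medians lay furthest from 0, at -2.02 and 2.12, and their part in these values was not tested.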

How the results depend on the processing

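The median of the splicing and hnRNP probes was -0.16, and it ran from -0.19 to -0.05 when 1 array was left out. It ran from -0.21 to -0.10 under the other processing choices and was 0.05 with array 3 turned. No probe among them passed limma's adjusted threshold under the settings run.

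At unadjusted p under 0.05 (limma), the 8 lower probes (9.09%) became 5 of 85 with pixel medians (5.88%, beside 3.15% of all tested probes in that setting). They were 5 of 58 with 1 probe per gene (8.62%, beside 4.12%) and 6 with median centring (6.82%, beside 5.22%). The number was 1 with array 3 turned (1.14%, beside 5.56%) and 1 with arrays 2 and 4 alone (1.14%, beside 4.83%). With array 1 turned it was 4 (4.55%, beside 3.7%). The range was 3 to 6 when 1 array was left out, with 5, 3 and 4 without arrays 1, 3 and 4, beside 4.59, 5.03 and 2.17% of all. The 1 higher probe became 2 with pixel medians (3.01% of all), with pixel-mean background (3.42%) and with no filter (2.21%). It became 0 with median centring (1.81%) and with a dye term (3.62%), 7 with array 3 turned (4.5%), 7 with arrays 2 and 4 alone (5.43%) and 4 with array 1 turned (3.91%). It ranged from 0 to 4 when 1 array was left out, beside 1.52 to 4.59% of all. With pixel-mean background, 11 probes were lower and 1 higher on all 4 arrays, beside 7.34 and 7.65% of all.

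Of 16 probes followed, chosen for a small p or 1 sign on all 4 arrays, the mean changed sign for 4 with array 3 turned, to 0.02 (SRSF2 EMBV3_40458), 0.04 (SNRPC), 0.03 (HNRNPAB) and 0.12 (PRPF38A). With array 1 turned it did so for SF3B1 (0.06) and SRSF4 (0.02). Turning 1 array must move the mean of a probe with 1 sign on all arrays towards 0 or past it. The share of such sign changes over all tested probes is not given here. With array 3 turned, the medians of the other lists became 0.13 (export), 0.15 (branch point), 0.08 (regulators) and 0.08 (assembly). Probes with a dye term numbered 3 in the authors' ratios and 8 with median centring, from 1, beside 8.3, 9.93 and 8.34% of all. The cause of these shifts was not tested. Turning array 1 and the pixel-mean background were added after seeing the data. Pairing of the pools is within each array, so the ratios are already paired and no further replicate block applies.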
